A study of Sus scrofa with 4 samples.

Results

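The 10 macrophage genes CD163, CD14, CD68, ITGB2, VSIG4, TYROBP, AIF1, MSR1, GPNMB and LGMN were followed in infarcted heart tissue of minipigs with and without myoblast transplantation. They were chosen by name as genes of the macrophage surface and of the lysosome, and every probe set with one of these symbols in the annotation of the array was taken. Of the 10 genes, 8 were found, with 16 of the 24123 probe sets of the array, while CD68 and MSR1 have no probe set under these symbols and were skipped.

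Tissue came from the infarct zone and from the border zone of hearts with myocardial infarction (MI), with 1 Affymetrix Porcine Genome Array for each of 4 conditions: myoblast transplantation in the infarct zone and in the border zone, and untreated control in the same zones. According to the methods, the animals were female Chinese Bama minipigs aged 4 months, MI was made by permanent ligation of the left circumflex coronary artery, and human skeletal myoblasts in 5 mL of DMEM were given by 10 injections into the border of the infarct, with cyclosporin A at 5 mg/kg. The control treatment group of the methods received DMEM and the same cyclosporin A, whereas a separate MI group received neither. The labels call the control arrays untreated, while the study's text names the control treatment group as the one compared on the arrays. By that text, DMEM and cyclosporin A are shared by all 4 arrays. Tissue with a graft also holds human cells, and the time of sampling and the number of minipigs behind an array are not stated for the arrays. Since each condition has 1 array, the spread among minipigs is unknown, no test was made, and each ratio below has no replicate check. Values are MAS 5.0 signals in arbitrary units, which the authors scaled to a common mean on each array, and the number of arrays limits the precision. A ratio of at least 2-fold, the threshold in the methods, is used for counts.

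After an infarction, monocytes enter the heart, become macrophages and take up dead cells and debris, alongside macrophages that already live in the myocardium. CD163, the scavenger receptor for haemoglobin bound to haptoglobin, VSIG4, a complement receptor, and CD14, which hands lipopolysaccharide to Toll-like receptor 4, stand on the surface of these cells. ITGB2 is the beta subunit of leukocyte integrins, TYROBP is an adaptor that carries the signal of activating receptors of myeloid cells, and AIF1 binds actin and calcium in the cytoplasm of activated macrophages. GPNMB is a glycoprotein of phagosomes and lysosomes of lipid-laden macrophages, and LGMN (legumain) is a lysosomal protease that cleaves after asparagine. In bulk tissue, fewer macrophages and less RNA per macrophage cannot be told apart.

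The arrays carried the markers of heart muscle, and leukocyte genes ranged from dim to bright. All 10 measured cardiomyocyte markers of 12 listed lay above the median of the arrays, which was 142, 140, 137 and 139 units in the myoblast infarct, myoblast border, control infarct and control border arrays. The leukocyte gene PTPRC lay under it everywhere, with 67.6 and 55.1 units with myoblasts in infarct and border zone against 59.7 and 35.1 in controls, whereas LAPTM5, a lysosomal membrane protein of leukocytes, gave 2297 and 2009 units against 1812 and 1670 and was chosen after its value was seen. Of the signs of RNA quality, some separated the treatments. Both myoblast arrays had a lower 3'/5' ratio of EF1A (2.49 in the infarct and 3.01 in the border zone, against 4.13 and 4.17 in controls). They also had a lower log2 signal of 28S ribosomal RNA (13.32 and 13.05, against 13.96 and 13.94 in controls). The 3'/5' ratio of GAPDH did not separate them (1.38 and 1.73 against 1.52 and 1.55), and that of actin was 19.5 and 24.6 against 36.8 and 24.9. Their part in the results below was not tested. Of the 16 probe sets, 9 lay above the median on every array, 2 on some arrays and 5 on none.

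The members ITGB2, TYROBP and AIF1, and VSIG4 on 2 of its 3 probe sets, had higher signals with myoblasts than in controls in both zones. The ITGB2 probe set (Ssc.14561.1.S1_at) gave 212 and 205 units with myoblasts in infarct and border zone, against 137 and 87.0 in controls. Both myoblast arrays lay above both control arrays, as for 22.8% of all probe sets, and the ratios were 1.55 in the infarct zone and 2.36 in the border zone, the control border array being well under the array median. With signals floored at that median, the log2 ratio of ITGB2 in the border zone was 0.56 in place of 1.24, under 2-fold. VSIG4 gave 1792 and 1870.5 units with myoblasts in infarct and border zone against 1209 and 1010 in controls on its probe set of highest mean signal (Ssc.16640.1.A1_at), with ratios of 1.48 and 1.85. Here too the treatments did not overlap. A second VSIG4 probe set (Ssc.16640.2.S1_at) pointed the same way by less, with 271 and 277 units with myoblasts against 227 and 215 in controls, while the third (Ssc.16640.3.S1_at), under the array median everywhere, gave 105 and 107 units against 133 and 103. The size of the VSIG4 difference, and in the infarct zone its direction, thus depended on the probe set read.

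TYROBP (Ssc.507.1.A1_at) gave 1076 and 940.2 units with myoblasts in infarct and border zone against 814 and 499 in controls, ratios of 1.32 and 1.88. AIF1 (Ssc.455.1.S1_at) gave 902 and 1037 units with myoblasts against 655 and 639.6 in controls, ratios of 1.38 and 1.62. For both genes the lower myoblast array was above the higher control array. In all, 6 of the 16 member probe sets, those of AIF1, ITGB2, LGMN and TYROBP and a pair of VSIG4, had both myoblast arrays above both control arrays, and 3, of CD163 and GPNMB, had both under, beside 22.8% and 22.1% of all probe sets. The ratios were also ranked among the 12214 probe sets above the array median in both zones. The 4 genes ITGB2, VSIG4, TYROBP and AIF1 are grouped here because they were higher with myoblasts, so their high ranks follow from that choice. In the border zone ITGB2 entered this set through its myoblast array alone. In infarct and border zone ITGB2 lay at percentiles 91.7 and 98.6, and the brightest VSIG4 probe set at 90.0 and 96.3. TYROBP lay at 83.4 and 96.6, and AIF1 at 86.1 and 93.5. The second VSIG4 probe set lay at 73.8 and 80.3, and LGMN at 70.4 and 51.4. The brightest GPNMB probe set lay at 27.5 and 21.1, and the brighter CD163 probe set at 86.8 and 19.6. The ratio of each of the 4 genes was larger in the border zone than in the infarct zone. LGMN, the lysosomal protease, was nearly level, with 2510 and 2185 units with myoblasts against 2161 and 2135 in controls (Ssc.6709.1.S1_at, ratios of 1.16 and 1.02).

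**Figure D1:**
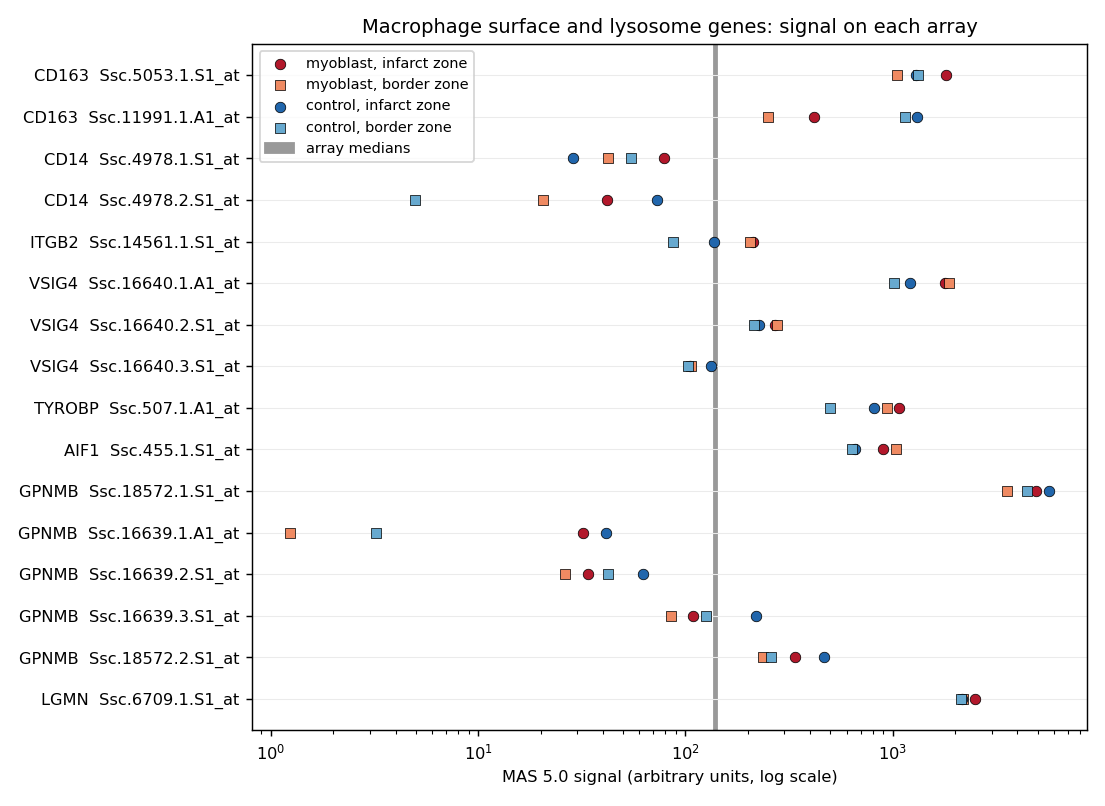
MAS 5.0 signal in arbitrary units (x axis, log scale) of each of the 16 probe sets (y axis) on the 4 arrays, 1 point per array, with the range of the array medians as a grey band. ITGB2, TYROBP, AIF1 and the brighter pair of VSIG4 probe sets have both myoblast points to the right of both control points, and the second CD163 probe set has them far to the left, at 415 and 251 units against 1314 and 1149.

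GPNMB ran the other way. Its probe set of highest mean signal (Ssc.18572.1.S1_at) gave 4913 and 3576 units with myoblasts in infarct and border zone against 5712 and 4432 in controls, ratios of 0.860 and 0.807. Within each zone the myoblast array was the lower one, although the treatments overlapped across zones. The other probe sets of GPNMB had lower signals with myoblasts too, so that all 5 were lower in both zones. The next in signal (Ssc.18572.2.S1_at) gave 339.7 and 237 units with myoblasts against 468 and 258 in controls. The third (Ssc.16639.3.S1_at) gave 109 and 85.2 units against 218 and 126. Their ratios were 0.725 and 0.921 for the second and 0.501 and 0.674 for the third, the last just short of 2-fold in the infarct zone. The last pair lay under the array median everywhere. Of these, Ssc.16639.2.S1_at gave 33.8 and 26.2 units with myoblasts against 62.3 and 42.5 in controls, and Ssc.16639.1.A1_at gave 32 and 1.24 units against 41.3 and 3.23, which is near the floor of the array in both border samples. After flooring at the array median, the log2 ratio was 0.01 in the border zone for the 3 dimmest probe sets and 0.05 in the infarct zone for the 2 dimmest, so the lower signals in both zones rest on the 2 brightest probe sets at that setting. These 5 probe sets measure 1 gene and are not independent of each other.

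The 2 probe sets of CD163 differed widely in their ratios. The probe set of higher mean signal (Ssc.5053.1.S1_at) gave 1810 and 1053 units with myoblasts in infarct and border zone against 1299.6 and 1330.2 in controls, that is 1.39 times control in the infarct zone and 0.792 times in the border zone. The other (Ssc.11991.1.A1_at) gave 415 and 251 units with myoblasts against 1314 and 1149 in controls, ratios of 0.316 and 0.218. On this second probe set both myoblast arrays lay far under both control arrays. It was the only one of the 16 at least 2-fold lower in both zones. Of all 24123 probe sets, 679 were at least 2-fold lower in both zones, and of the 12214 above the array median, 117 were. Among these 12214 the ratios of the second CD163 probe set stood at percentiles 0.524 and 0.196 in infarct and border zone. The gap between the probe sets in log2 ratio was 2.14 in the infarct zone and 1.86 in the border zone. Of 896 genes with at least 2 probe sets above the array median, 3 (0.335%) had a pair at least 1.86 apart in both zones, the smaller gap of CD163. They were CD163, IVD, an enzyme of leucine breakdown, and the smooth muscle actin ACTG2. This count was made after the values were seen. In the border zone both probe sets were lower with myoblasts (0.792 and 0.218), by very different amounts, and in the infarct zone they pointed opposite ways (1.39 and 0.316). Which of the probe sets follows CD163 mRNA better was not tested, and no direction can be given for the gene in the infarct zone.

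CD14 was dim, with every signal under the array median. Its probe sets (Ssc.4978.1.S1_at and Ssc.4978.2.S1_at) contradicted each other in both zones. The first gave 79.1 and 42.5 units with myoblasts in infarct and border zone against 28.7 and 54.5 in controls (ratios of 2.76 and 0.781), the second 41.9 and 20.6 units against 73.2 and 4.96 (0.572 and 4.14). At this signal no direction of CD14 was detectable.

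Counted by gene, on the probe set of highest mean log2 signal, 5 of the 8 members were higher with myoblasts in both zones by any amount (AIF1, ITGB2, LGMN, TYROBP and VSIG4), 1 was lower in both (GPNMB), and CD14 and CD163 were higher in the infarct zone alone. Counted by probe set, 6 of 16 were higher in both zones and 6 lower in both, beside 30.7% and 29.7% of all 24123 probe sets. At 2-fold, 1 of 16 member probe sets was higher in the infarct zone (CD14) and 1 lower (CD163), beside 10.5% and 9.58% of all probe sets. In the border zone 2 were higher (CD14 and ITGB2) and 2 lower (CD163 and GPNMB), beside 9.95% and 10.4%. At 1.5-fold, 2 of 16 were higher and 4 lower in the infarct zone (18.6% and 17.1% of all), and 5 were higher and 3 lower in the border zone (17.7% and 18.6%). The shares of probe sets that passed 2-fold are close to those of the whole array. By gene, the median log2 ratio of the members was 0.47 in the infarct zone and 0.37 in the border zone, against 0.01 and 0.00 over all probe sets, but over all 16 member probe sets it was 0.00 and -0.04. Counting by probe set enters GPNMB 5 times, and when the probe sets of a gene were averaged the median by gene was 0.27 in the infarct zone and 0.57 in the border zone.

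**Figure D2:**
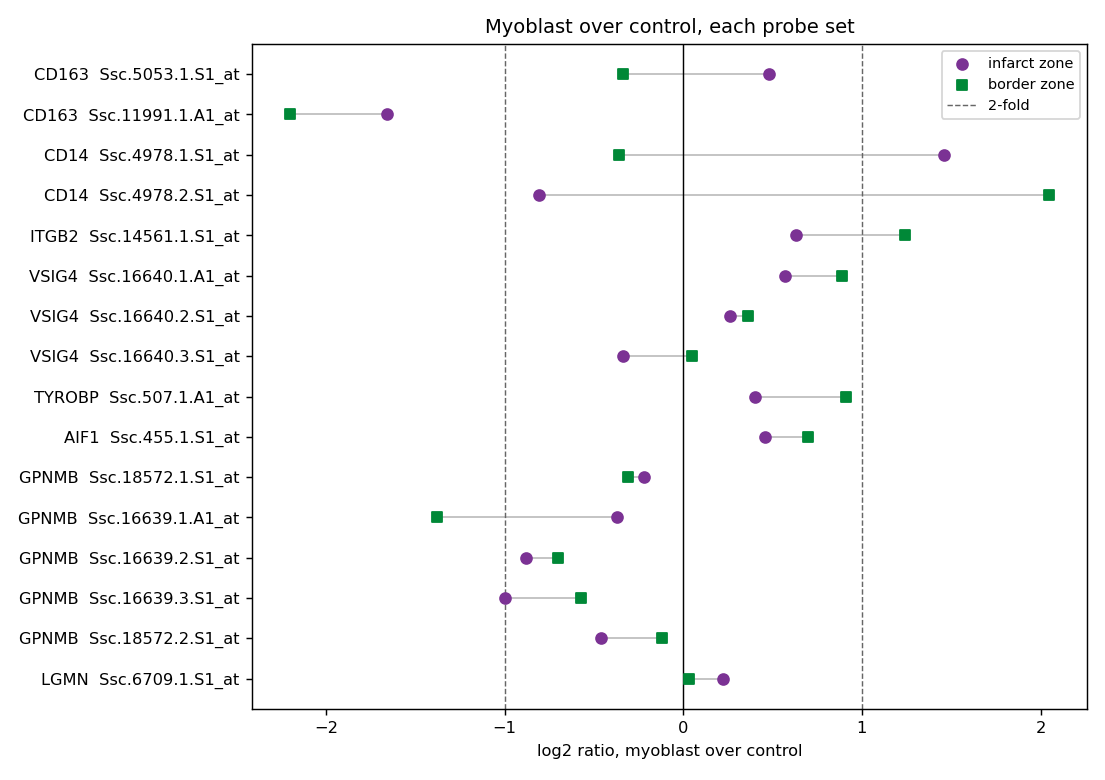
Log2 ratio of myoblast to control (x axis) of each of the 16 probe sets (y axis) in the infarct zone (circles) and the border zone (squares), 1 array against 1 array, with dashed lines at 2-fold. GPNMB is left of 0 on all 5 probe sets, ITGB2, TYROBP and AIF1 are right of 0, and the CD14 and CD163 pairs of probe sets part from each other.

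Between the zones, GPNMB was the member with the steadiest difference. It had higher signals in the infarct zone than in the border zone on all 5 probe sets in both treatments. After the same flooring the zones of the dim probe sets were level, except for the third in signal in controls. On the brightest, 4913 units in the infarct zone stood against 3576 in the border zone after myoblasts (ratio 1.37), and 5712 against 4432 in controls (1.29). The second in signal gave 339.7 against 237 units after myoblasts (1.43) and 468 against 258 in controls (1.82). Macrophages that carry GPNMB are known from tissue with much phagocytosis of cells and lipid.

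TYROBP and ITGB2 had a zone difference mainly in control tissue. TYROBP gave 1076 units in the infarct zone against 940.2 in the border zone after myoblasts (ratio 1.14), and 814 against 499 in controls (1.63). ITGB2 gave 212 against 205 units after myoblasts (1.03) and 137 against 87.0 in controls (1.58, or a log2 ratio of 0.66), but the control ratio was -0.02 on the log2 scale with signals floored at the array median. For both genes the control border array was the lowest of the 4. CD163 showed the reverse pattern, since on its brighter probe set the infarct zone exceeded the border zone after myoblasts (1810 against 1053, ratio 1.72) and the zones were level in controls (1299.6 against 1330.2, ratio 0.977). Its other probe set also had the larger zone ratio after myoblasts, 1.66 against 1.14 in controls. The zones of AIF1, LGMN and VSIG4 lay within 1.2-fold of each other in both treatments on their brightest probe sets. Each of these differences between treatments in the zone ratio is the same quantity as the difference between zones in the treatment ratio, since the 4 contrasts share the 4 arrays, and none was tested.

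By gene, 4 of the 8 members were higher in the infarct zone in both treatments (GPNMB, ITGB2, LGMN and TYROBP) and none lower in both. By probe set, 10 of 16 were higher in both and 0 lower, beside 28.5% and 25.3% of all probe sets, and 5 of those 10 belong to GPNMB. At 2-fold, 2 probe sets were higher in the infarct zone after myoblasts and 2 in controls, a dim one each of CD14 (ratios of 2.04 after myoblasts and 14.8 in controls) and GPNMB (25.8 and 12.8), beside 9.77% and 8.95% of all probe sets. None was 2-fold lower, against 8.18% after myoblasts and 8.25% in controls. The median log2 ratio by gene was 0.20 after myoblasts and 0.15 in controls, against 0.03 and 0.00 over all probe sets.

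**Figure D3:**
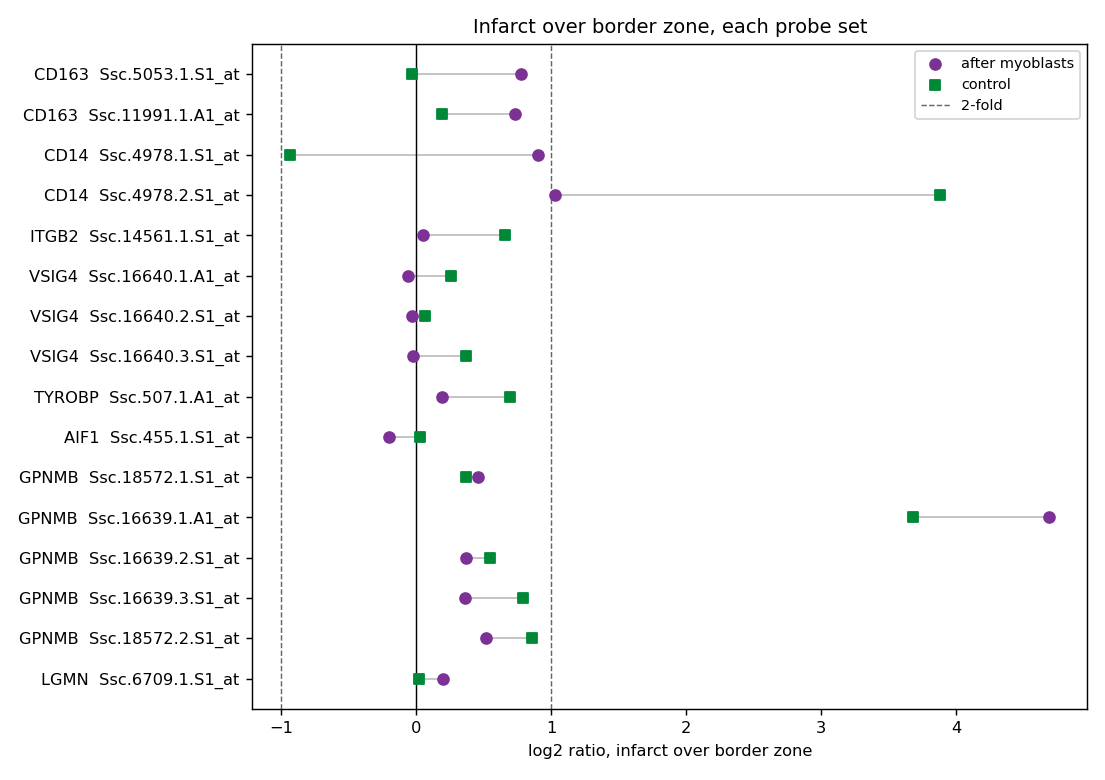
Log2 ratio of infarct over border zone (x axis) of each of the 16 probe sets (y axis) after myoblasts (circles) and in controls (squares), with dashed lines at 2-fold. All GPNMB points lie right of 0, and the 2 points past 3 in controls and the 1 point past 4 after myoblasts belong to probe sets with signals under the array median.

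Other macrophage and monocyte genes were more often higher than lower with myoblasts in both zones. Of 41 genes listed, 23 were measured. Of these, 14 were higher with myoblasts in both zones and 2 lower in both, beside 30.7% and 29.7% of all probe sets. At 2-fold, 5 were higher and 0 lower in the infarct zone, and 5 higher and 2 lower in the border zone. The shares over all probe sets were the 10.5%, 9.58%, 9.95% and 10.4% given above. Of the 12214 above the array median, 350 were higher and 270 lower in the infarct zone, and 339 and 314 in the border zone. Of the 5 higher genes, 2 in the infarct zone (FCGR1A and CD209) and 4 in the border zone (the same and ITGAM and MARCO) were not above the array median in both zones. The median log2 ratio was 0.34 in the infarct zone and 0.47 in the border zone. FCGR2B, the inhibitory Fc receptor, gave 2464 and 1625 units with myoblasts in infarct and border zone against 1025 and 925 in controls, ratios of 2.40 and 1.76. APOE, the apolipoprotein that macrophages secrete, gave 329 and 297 units against 36.7 and 220.2, and a ratio of 8.97 in the infarct zone that rests on the low control infarct array. The lowest mean ratios among genes above the array median were those of CD86, a co-stimulatory ligand (167 and 83.1 units with myoblasts against 139 and 167 in controls), and SPI1 (PU.1), the master transcription factor of the myeloid lineage (260.3 and 303 units against 226 and 485). Both were lower in the border zone and higher in the infarct zone. The summed signal of the 23 genes was 20716 and 16163 units with myoblasts against 13990 and 13214 in controls. That of the 8 members was 13294 and 10910 units against 12016 and 10187, with CD163 read from its brighter probe set. The other CD163 probe set gave 415 and 251 units against 1314 and 1149, so the sum of the members depends on that choice.

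Lysosomal genes, many but not all of which are active in nearly every cell, had mostly small log2 ratios, more often above 0 than under it. Of 50 genes listed, 39 were measured, with median log2 ratios of 0.26 in the infarct zone and 0.28 in the border zone. Of the 39, 26 were higher with myoblasts in both zones and 2 lower in both, beside 30.7% and 29.7% of all probe sets. Above the array median lay 37 of the 39. Of all 12214 probe sets there, 4317 were higher in both zones and 3937 lower in both. At 2-fold, 2 were higher and 1 lower in the infarct zone, 1 higher and 2 lower in the border zone. Over all probe sets these shares were 10.5%, 9.58%, 9.95% and 10.4%. Of the 12214 above the array median, 350 were higher and 270 lower in the infarct zone, and 339 and 314 in the border zone. ACP5, the tartrate-resistant acid phosphatase of macrophages and osteoclasts, gave 364 and 209 units with myoblasts against 109 and 124 in controls (ratios of 3.34 and 1.68), both control signals being under the array median. LIPA, the acid lipase that frees cholesterol in lysosomes, gave 1673 and 1762 units against 882 and 907 (1.90 and 1.94). CTSC, the protease that activates granule enzymes of leukocytes, differed in the opposite direction, with 4661 and 4555 units with myoblasts against 12615 and 11252 in controls (0.369 and 0.405). All 4 CTSC probe sets were lower with myoblasts in both zones, the other three with ratios of 0.560 to 0.664. SMPD1, the acid sphingomyelinase, gave 456 and 398 units against 530.2 and 522 (0.861 and 0.763). LGMN lay between these, with its ratios near 1.

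Partners and ligands of the members had ratios on both sides of 1. Of 39 genes listed, 26 were measured, with median log2 ratios of 0.08 in the infarct zone and 0.20 in the border zone. Of the 26, 12 were higher with myoblasts in both zones and 7 lower in both, beside 30.7% and 29.7% of all probe sets. At 2-fold, 6 were higher and 1 lower in the infarct zone, and 4 higher and 3 lower in the border zone. Over all probe sets these shares were 10.5%, 9.58%, 9.95% and 10.4%. Above the array median in both zones were only C3 and LGALS3 among the 6, C3 among the 4, and none of those that were lower. C3, whose fragments are ligands of VSIG4 and of ITGB2 integrins, gave 10466 and 9571 units with myoblasts against 3637 and 3647 in controls. LGALS3 (galectin-3), a lectin of macrophages, gave 2005 and 1434 units against 697 and 935 (ratios of 2.88 and 1.53). The lowest mean ratios above the array median were those of SCARB1, a scavenger receptor for lipoproteins (334 and 298 units against 429 and 322), and TLR2 (474 and 462 against 615 and 487), both under 1.5-fold. For their roles beside members, and with values known, some further genes are given. LY96 (MD-2), which binds lipopolysaccharide together with Toll-like receptor 4, gave 1335 and 1431 units with myoblasts against 849 and 784 in controls (1.57 and 1.82). FCER1G, an adaptor akin to TYROBP, gave 529.7 and 553 units against 529.5 and 458 (1.0 and 1.21). ITGAM (CD11b), the alpha partner of ITGB2, lay under the array median on both of its probe sets, at 9.21 to 51.1 units, so that its ratios, counted above, rest on dim signals.

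**Figure D4:**
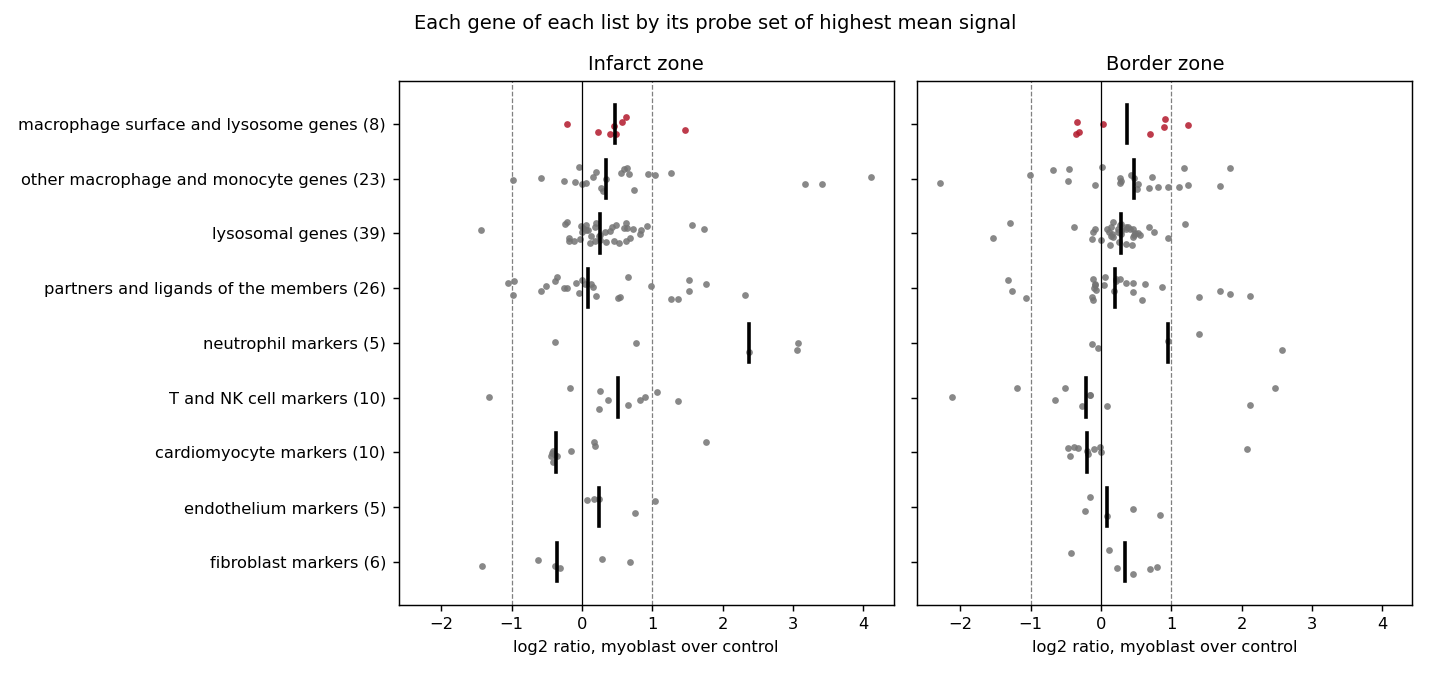
Each point is a gene, read from its probe set of highest mean signal and placed by its log2 ratio of myoblast to control (x axis), in 9 lists (y axis, number of genes in brackets), infarct zone on the left and border zone on the right, with vertical bars at the median of each list and dashed lines at 2-fold. The members (red) have medians of 0.47 and 0.37, beside 0.34 and 0.47 for other macrophage and monocyte genes and 0.26 and 0.28 for lysosomal genes.

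Markers of other cell types also differed between the treatments. Of 10 cardiomyocyte markers, 7 were lower with myoblasts in both zones, beside 29.7% of all probe sets. Their summed signal was 197190 and 191810 units in infarct and border zone against 241274 and 214852 in controls. Their ratios in infarct and border zone reached 3.38 and 4.24 for NPPA, the natriuretic peptide of stretched heart muscle. For ATP2A2, the calcium pump of the sarcoplasmic reticulum, the ratios were 1.12 and 0.999. In the mean of both zones the contractile genes MYL3 (0.754 and 0.719) and ACTC1 (0.746 and 0.737) were lowest. In the infarct zone alone TNNI3 (0.739) and MYL2 (0.742) were lower still. Of 5 B and plasma cell markers listed, 2 were measured. The plasma cell gene JCHAIN gave 3828 and 1245 units with myoblasts against 648 and 775 in controls. The B cell gene CD79B, under the array median everywhere, gave 42.8 and 3.35 units against 6.26 and 5.57. The neutrophil list (5 of 8 measured), which includes the chemokine CXCL8, lay under the array median on every array. It summed to 306 and 320 units against 122 and 155, of which CXCL8 gave 65.3 and 95.6 against 38.6 and 16.0. Of the 5 genes, 3 were higher with myoblasts in both zones and 1, S100A8, was lower in both (0.769 and 0.915), beside 30.7% and 29.7% of all probe sets. The 10 T and NK cell markers measured of 13 summed to 697 and 471 units against 499 and 524, with 9 of them under the median everywhere. Endothelial markers (5 of 5 measured) summed to 9167 and 7236 units against 6836 and 7229, with ratios of 2.04 and 1.37 for CDH5 and 1.69 and 1.06 for TEK, and of 1.12 and 0.860 for PECAM1 and 1.05 and 0.899 for VWF. Fibroblast markers (6 of 8 measured) summed to 56980 and 90428 units against 67432 and 68076, with ratios of 1.61 and 1.37 for COL1A2, 1.21 and 1.63 for FN1, 0.371 and 0.745 for COL3A1 and 0.651 and 1.17 for LUM. The 5 skeletal muscle markers measured of 10 lay under the array median everywhere and summed to 177 and 120 units against 160 and 195. None of these sums is a cell count, and their part in the ratios of the macrophage genes was not tested.

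The genes whose pattern over the 4 arrays came closest to the median pattern of the 8 members (root mean square distance of centred log2 signals, among 6024 probe sets of other genes above the array median) were TSHZ1, SRP68, ZDHHC4, MAP3K7 and DUSP1, at distances of 0.0528 to 0.0567. The median pattern itself was 0.38 and 0.10 with myoblasts in infarct and border zone against -0.10 and -0.19 in controls. With 4 arrays this likeness is a description only.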

How the data were processed

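RNA of minipig heart was hybridized to Affymetrix Porcine Genome Arrays, 1 array for each of 4 conditions. The authors processed the scans with the MAS 5.0 algorithm (background subtraction and scaling of each array) and Gene Spring Software, and their deposited log2 signals were used unchanged. The mean linear signal, without the highest and lowest 2% of probe sets, was 499.8 on every array. A genome build is not given in the sources used here. Of 24123 probe sets, 10099 have a single gene symbol in the platform annotation, 198 several and 13826 none. All 16 member probe sets matched the reference annotation by gene ID, with no symbol changed.

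Log2 signals were subtracted (myoblast minus control, infarct minus border zone). A gene was read from its probe set of highest mean log2 signal unless stated, and a probe set counted as above the array median when its higher array exceeded that median in both zones or both treatments. In each further gene list, the 2 largest rises and 2 largest falls in the mean of both zones among genes above the median are named, and so are the 5 genes closest in pattern. The members, lists and rules were chosen with earlier results of these data known. Alternatives were quantile normalization, centring, floors, the mean over probe sets and a 1.5-fold threshold. Counts and normalizations were tested on simulated data. Sequences of promoters and proteins were not analysed here. Python 3.11.15, pandas 2.3.3 and numpy 2.4.6 were used.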

Additional observations from a re-analysis of the deposited data

Results flagged for a closer look

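Both CD14 probe sets had ratios of myoblast over control on opposite sides of 1 in the 2 zones and were listed for that reason. The difference of border minus infarct zone log2 ratio was -1.82 for Ssc.4978.1.S1_at and 2.86 for Ssc.4978.2.S1_at, so that the probe sets also disagree with each other. This difference between zones was not tested, and all CD14 signals lay under the array median.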

How the results depend on the processing

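No paired analysis was possible because each condition has 1 array. Quantile normalization and centring on array medians moved none of the counts and medians of the members by over 1.5 times or 1.2-fold. With signals floored at the array median, 0 genes were 2-fold higher with myoblasts in either zone, against 1 in each as deposited. With the mean over all probe sets of each gene, 1 gene was 2-fold lower with myoblasts in the border zone and 0 were 2-fold higher in the infarct zone, while 1 gene after myoblasts and 2 in controls were 2-fold higher in the infarct than in the border zone, where the control median was 0.44. At 1.5-fold, 2 genes were higher with myoblasts in the infarct zone and 4 in the border zone, 2 were higher in the infarct than in the border zone in each treatment, and 1 was lower in controls. After the data were seen, 2 settings were added. Without CD14, 0 genes were 2-fold higher in the infarct zone and the border zone median was 0.70, and with the other CD163 probe set 1 gene was 2-fold lower in each zone. With signals floored at the array median, ratios of dim probe sets lay near 0: in the border zone 0.01 for GPNMB Ssc.16639.2.S1_at and Ssc.16639.3.S1_at, and in the infarct zone 0.05 for GPNMB Ssc.16639.1.A1_at and Ssc.16639.2.S1_at and VSIG4 Ssc.16640.3.S1_at. Ratios of at least 2-fold changed sign for GPNMB (Ssc.16639.1.A1_at) in the border zone (0.01) and between zones in controls (-0.02) at the array median, CD14 (Ssc.4978.2.S1_at) between zones in controls (-0.02) at the array median and in the border zone (-0.07) at the 25th percentile. A floored signal carries no order, by construction. The promoter motif search was not run.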
